A study of Homo sapiens with 6 samples.

Results

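The genes of cholesterol synthesis and of its control by the sterol regulatory element-binding proteins (SREBPs) were described in SEM::EGR3 and SEM::mock. The group holds 36 genes of the 35410 genes in the count table, chosen by their symbols and with earlier results of these data known. They include 8 enzymes of the mevalonate and isoprenoid steps, 11 of the steps from squalene to cholesterol and 5 SREBP factors and regulators. The others are 6 enzymes of fatty acid synthesis and 6 genes of sterol transport, efflux and oxidation. SEM is an established human leukemia cell line, labelled as proB, with the KMT2A::AFF1 fusion. SEM::mock carries an empty vector and SEM::EGR3 a vector for overexpression of EGR3, an early growth response transcription factor. Both lines hold the doxycycline-inducible system and both received 1 µg/mL doxycycline for 48 h before RNA was taken, so uninduced cells were not compared. RNA was measured by MACE-Seq, a sequencing of the 3′ ends of polyadenylated transcripts, in 3 biological replicates of each line. Whether each line is a clone or a pool of transfected cells is not given in the sources used here.

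Cholesterol is built from acetyl-CoA through mevalonate, the isoprenoid units, squalene and lanosterol. The transcription factor SREBP-2, encoded by SREBF2, mainly drives the enzymes of this route, while SREBP-1, encoded by SREBF1, mainly drives fatty acid synthesis. Both are made as membrane-bound precursors that SCAP escorts from the endoplasmic reticulum to the Golgi, where proteases release the active factor, and the INSIG proteins hold SCAP back when sterols are plentiful. SREBPs bind sterol response elements in promoters, often beside a box for the factor NF-Y, and proliferating leukemia cells use the pathway for membranes and for prenylated proteins.

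Promoter sequences are given here for 4 members, because SREBF2 and LSS held the sterol response element and the EGR site that were searched for, MSMO1 held 3 NF-Y boxes, and SCD was the member with the largest decrease. They come from RefSeq (GRCh38.p14) and lie directly upstream of the gene start, on the strand of the gene, at chr22:41832855-41833078 (plus strand) for SREBF2, chr21:46228825-46229024 (minus strand) for LSS, chr4:165327419-165327622 (plus strand) for MSMO1 and chr10:100346983-100347123 (plus strand) for SCD. Capitals mark a match, on either strand, to the sterol response element TCACNCCAC, the EGR site GCGTGGGCG or the NF-Y box CCAAT. A box that lies on the opposite strand appears in the printed run as its reverse complement.
SREBF2: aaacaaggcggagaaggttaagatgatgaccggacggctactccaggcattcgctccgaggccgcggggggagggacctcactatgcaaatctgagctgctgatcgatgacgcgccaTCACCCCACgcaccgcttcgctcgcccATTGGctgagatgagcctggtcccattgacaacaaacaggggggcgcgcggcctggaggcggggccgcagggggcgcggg
LSS: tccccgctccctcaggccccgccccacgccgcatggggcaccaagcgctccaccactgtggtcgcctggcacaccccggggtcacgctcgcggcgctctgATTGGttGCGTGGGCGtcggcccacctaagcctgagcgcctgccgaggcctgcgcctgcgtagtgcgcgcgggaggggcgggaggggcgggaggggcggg
MSMO1: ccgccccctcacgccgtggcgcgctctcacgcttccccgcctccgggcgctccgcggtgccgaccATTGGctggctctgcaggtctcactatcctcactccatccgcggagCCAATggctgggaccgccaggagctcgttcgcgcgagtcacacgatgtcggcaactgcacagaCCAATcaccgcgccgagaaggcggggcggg
SCD: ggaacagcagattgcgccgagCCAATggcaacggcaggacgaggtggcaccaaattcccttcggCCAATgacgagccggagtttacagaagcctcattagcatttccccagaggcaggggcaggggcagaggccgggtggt
The match in SREBF2 was TCACCCCAC, 133 to 125 bases before the start of its RefSeq transcript, with an NF-Y box at 106 to 102 bases. In LSS, the EGR site lay 143 to 135 bases before that start, beside an NF-Y box at 150 to 146 bases.

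RefSeq windows of 250 bases before the start were given for 31 of the 36 members, in 43 windows, and no matched letters of the 3 motifs overlapped in the 4 sequences above. The NF-Y box stood in a window of 20 of these 31 members (64.5%), and in 37.0% of all 27305 symbols with a window. Of the members with a window, it was found in 12 of 17 that were higher in SEM::EGR3, 3 of 6 that were lower and 5 of 6 that did not pass the test. TCACNCCAC was found in SREBF2 and in no other of the 31 members, and in 1.09% of all symbols (0.883% of all 35116 windows). GCGTGGGCG was found in LSS and in no other of the 31 members, and in 0.886% of all symbols (0.720% of all windows). A match is a description of letters in these windows and not of binding. A lack of a match refers to these exact letters within 250 bases, and not to other forms or places of an element.

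The counts summed to 5286115 to 6181388 per SEM::mock library and to 7293092 to 15106018 per SEM::EGR3 library, so low counts are less precise in SEM::mock. Levels are given as CPM, counts per 1000000 counts after scaling each library by a TMM factor (trimmed mean of M values). The counts of EGR3 itself were 8, 10 and 6 in the line with the empty vector against 9768, 4952 and 5557 in the overexpressing line, in the direction of the labels. The labelled proB identity was not seen in SEM::mock: the summed level of 14 B-lineage markers was 2.64 to 5.86 CPM there and 671 to 704 CPM in SEM::EGR3, with 11 of 14 at 3 counts or fewer in every SEM::mock library. EBF1 and IGHM were at 0 throughout SEM::mock, and 6 of the 14 markers were at 0 in each of them. The 9 targets of the KMT2A fusion summed to 38.9 to 47.0 CPM in SEM::mock and 966 to 1005 CPM in SEM::EGR3. The 14 erythroid markers were abundant in both lines, at 4973 to 5274 CPM in SEM::mock and 6158 to 6409 CPM in SEM::EGR3, and 10 myeloid markers summed to 377 to 391 CPM and 227 to 229 CPM, 10 T cell markers to 86.8 to 99.2 CPM and 132 to 144 CPM, in the same order of lines. The induced EGR3 and other differences between the lines therefore cannot be told apart, and the part of these marker differences in the values below was not tested.

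**Figure D1:**
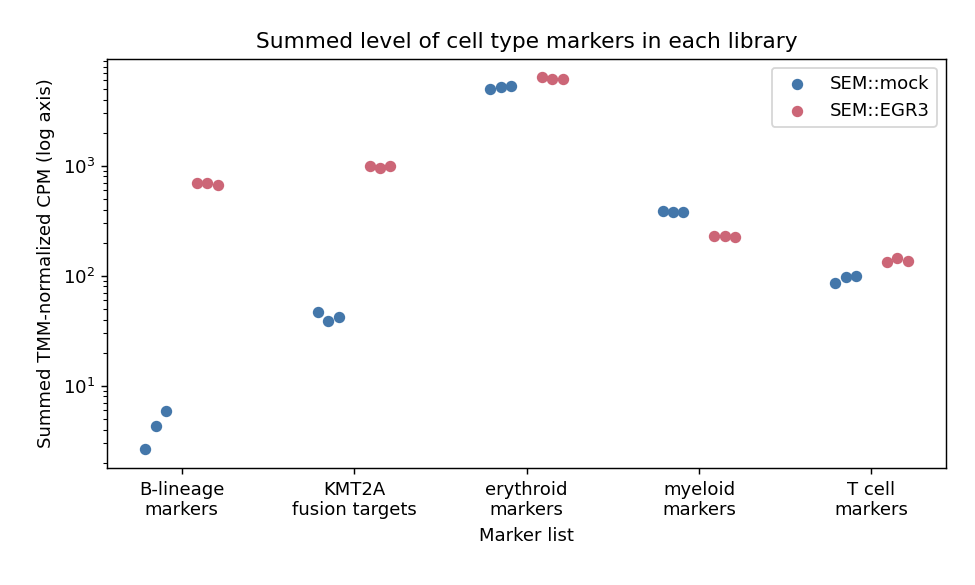
Summed TMM-normalized CPM (log axis) of 5 marker lists in each library, with SEM::mock in blue and SEM::EGR3 in red. B-lineage markers reach at most 5.86 CPM in SEM::mock, while erythroid markers reach at least 4973 CPM in all 6 libraries.

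More members were higher than lower in SEM::EGR3, while in fatty acid synthesis more were lower than higher. Of the 36 members, 33 were counted deeply enough to be tested, of which 20 were higher in SEM::EGR3 (60.6%), 7 were lower (21.2%) and 6 did not pass an adjusted p-value of 0.05 in edgeR's quasi-likelihood test. CYP27A1, 1 of the 20, entered the test through its SEM::EGR3 libraries alone and so had to differ. Over all 15465 genes tested, 36.5% were higher and 32.0% lower, 68.5% in all, so most genes differed between these lines. The counts of the smaller lists below stand beside these same shares. The median log2 fold change (log2fc, SEM::EGR3 against SEM::mock) was 0.33 over the 33 members and 0.03 over all genes tested. The 3 libraries of one line did not overlap with those of the other in 28 of the 33 members (84.8%) and in 70.1% of all genes tested. An absolute log2fc of at least 1 was reached by 9 of the 33 members (27.3%), 8 of them higher, and by 25.2% of all genes tested. CYP27A1, which had to differ, is also counted among the 28 members without overlap and among these 8. In bulk RNA, fewer cells that express a gene and less RNA per cell cannot be told apart.

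**Figure D2:**
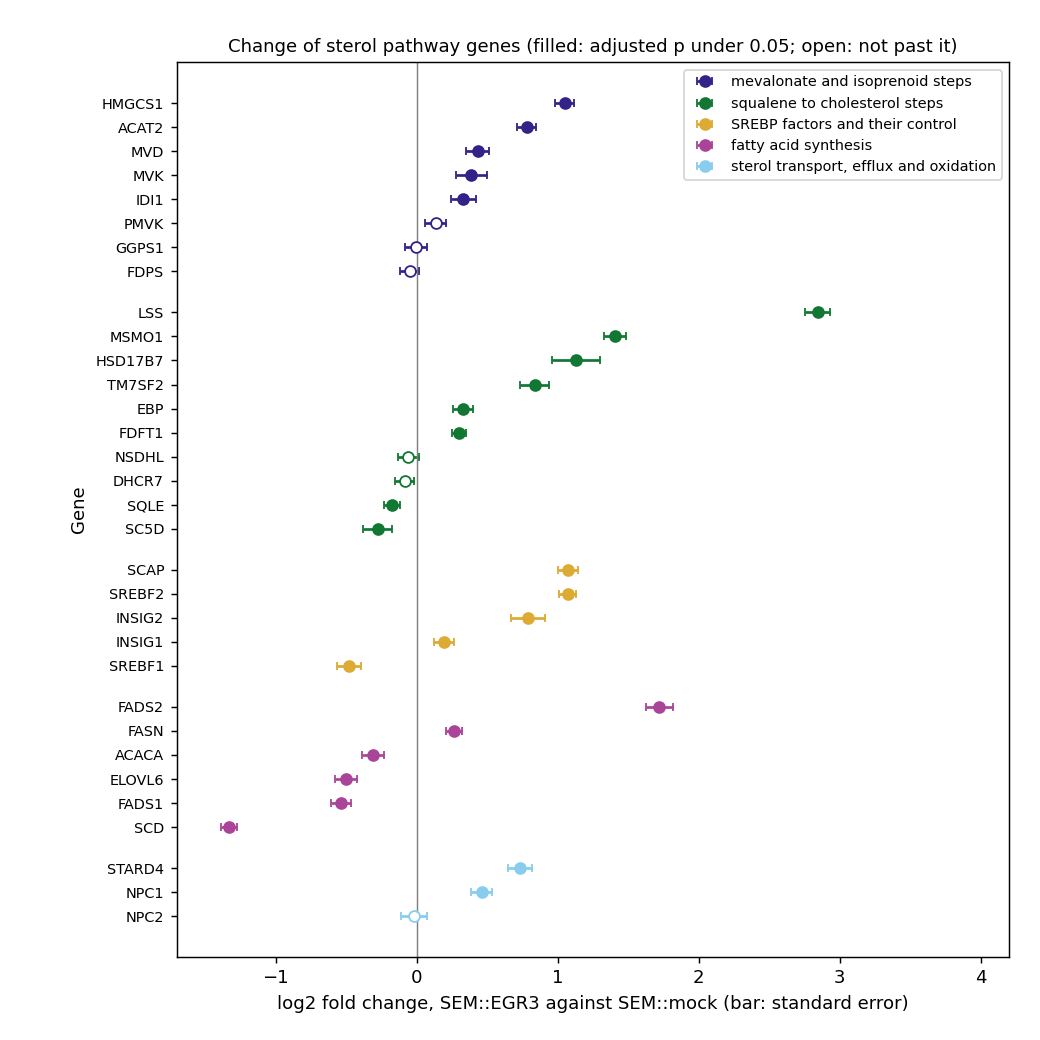
log2fc of 32 tested members with its standard error, grouped by role. Filled points passed an adjusted p-value of 0.05 and open points did not, and CYP27A1 is left out because its fitted value rests on 3 counts in SEM::mock. LSS lies farthest to the right at 2.84 and SCD farthest to the left at -1.33.

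In the mevalonate and isoprenoid steps, the first enzymes were the ones that rose most. Of 8 enzymes, 5 were higher, 0 were lower and 3 did not pass, with a median log2fc of 0.36. HMGCS1, which makes HMG-CoA, had 72.0, 76.7 and 73.8 CPM in SEM::mock and 144, 165 and 154 CPM in SEM::EGR3. It rose 2.07-fold (log2fc 1.05, SE 0.06, adjusted p = 3.02e-13), and the lowest SEM::EGR3 library lay far above the highest SEM::mock library. Its last exon overlaps in 33.1% of its bases with the antisense gene AC114947.2, which had 0 counts in all libraries. ACAT2, the cytosolic thiolase that joins acetyl-CoA units, had 62.8, 63.2 and 71.3 CPM in SEM::mock and 106, 113 and 121 CPM in SEM::EGR3. Its log2fc was 0.78 (SE 0.07, adjusted p = 3.22e-10). All bases of its last exon also belong to TCP1 on the opposite strand, and the use of strand in counting is not given in the sources used here, so reads of the 2 genes may not be separable. TCP1 itself was lower in SEM::EGR3 (log2fc -0.23, SE 0.05, adjusted p = 0.00041).

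The later mevalonate enzymes moved less. MVK, mevalonate kinase, rose from 20.7 ± 0.726 to 27.6 ± 3.53 CPM (SD, n = 3 each, log2fc 0.39, SE 0.11, adjusted p = 0.00305). MVD, which decarboxylates mevalonate diphosphate, rose from 47.3 ± 2.95 to 64.3 ± 6.56 CPM (SD, n = 3 each, log2fc 0.43, adjusted p = 3.86e-05 in edgeR). IDI1, the isomerase of the isoprenoid unit, rose from 38.2 ± 5.84 to 48.4 ± 2.28 CPM (SD, n = 3 each, log2fc 0.33, adjusted p = 0.00198 in edgeR). None of these 3 enzymes had overlapping libraries, although the highest SEM::mock library of IDI1 (44.7 CPM) was close to its lowest SEM::EGR3 library (45.9 CPM). PMVK, phosphomevalonate kinase, had a log2fc of 0.14 (SE 0.08, adjusted p = 0.116). FDPS, which makes farnesyl diphosphate at the branch toward sterols and prenylation, had 209 ± 20.2 CPM in SEM::mock and 203 ± 14.2 CPM in SEM::EGR3 (SD, n = 3 each, adjusted p = 0.529 in edgeR). GGPS1, which makes geranylgeranyl diphosphate for prenylation, had 46.8 ± 4.02 and 46.7 ± 1.88 CPM (SD, n = 3 each, adjusted p = 0.991 in edgeR). The libraries of both lines overlapped in FDPS and GGPS1. FDPS shares 85.7% of its last exon with RUSC1-AS1 on the opposite strand, which had at most 11 counts, and its 7 pseudogenes in the table summed to at most 62 counts per library. GGPS1 shares 15.2% of its last exon with TBCE on the same strand, which had at most 10 counts in a library.

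Between squalene and cholesterol, single enzymes diverged. Of 11 enzymes, 10 were tested, of which 6 were higher, 2 were lower and 2 did not pass, with a median log2fc of 0.32. LSS, the lanosterol synthase that closes the sterol ring system, had 19.5, 17.8 and 24.4 CPM in SEM::mock and 154, 137 and 148 CPM in SEM::EGR3. This was a 7.18-fold rise (log2fc 2.84, SE 0.09, adjusted p = 2.86e-19), and the libraries of each line lay close together. LSS shares 13.9% of its last exon with AP001468.1 on the opposite strand, which had 1 to 2 counts in SEM::mock and 3 to 16 counts in SEM::EGR3. SQLE, the squalene epoxidase that acts directly before LSS and is a classical rate-limiting step, had 231, 258 and 231 CPM in SEM::mock and 209, 206 and 222 CPM in SEM::EGR3. Its level was lower by a log2fc of -0.18 (SE 0.06, adjusted p = 0.00889), with no overlap between the lines. The call for SQLE was lost without SEM::mock replicate 2 (log2fc -0.13, adjusted p = 0.0614), without normalization factors (log2fc -0.10, adjusted p = 0.124) and with at least 10 counts required in every library (log2fc -0.13, adjusted p = 0.0591). FDFT1, the squalene synthase, rose from 239 ± 2.94 to 294 ± 1.70 CPM (SD, n = 3 each, log2fc 0.30, SE 0.05, adjusted p = 1.28e-05).

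Among the enzymes that follow lanosterol, MSMO1 and HSD17B7, which act in the removal of the methyl groups at carbon 4, rose most. MSMO1 had 27.3, 28.2 and 30.5 CPM in SEM::mock and 76.0, 70.0 and 81.2 CPM in SEM::EGR3, a 2.65-fold rise (log2fc 1.41, SE 0.08, adjusted p = 7.47e-14). HSD17B7 had 6.34, 4.84 and 4.69 CPM in SEM::mock and 12.5, 9.93 and 11.9 CPM in SEM::EGR3 (log2fc 1.13, SE 0.17, adjusted p = 2.75e-06). Neither gene had overlapping libraries. HSD17B7 has a near copy, the pseudogene HSD17B7P2, counted 60, 66 and 36 times in SEM::mock against 300, 148 and 178 times in SEM::EGR3 (log2fc 1.02, SE 0.14, adjusted p = 3.88e-07), so the split of reads between both is uncertain. NSDHL, the partner of MSMO1 and HSD17B7 in the same demethylation, did not pass the test, with 45.3 ± 1.19 and 43.2 ± 2.54 CPM (SD, n = 3 each, log2fc -0.06, adjusted p = 0.518 in edgeR).

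TM7SF2, a sterol reductase that acts beside them, rose from 14.8 ± 1.17 to 26.6 ± 0.153 CPM (SD, n = 3 each, log2fc 0.84, SE 0.10, adjusted p = 1.27e-07). EBP, the sterol isomerase, rose from 86.6 ± 9.61 to 109 ± 6.30 CPM (SD, n = 3 each, log2fc 0.33, adjusted p = 0.000239 in edgeR). The last steps did not follow. SC5D, the sterol desaturase, had 28.9, 23.9 and 28.1 CPM in SEM::mock and 23.8, 20.8 and 21.2 CPM in SEM::EGR3 (log2fc -0.28, SE 0.10, adjusted p = 0.0189), so the closest libraries of the lines nearly touched. This call was lost in DESeq2 (adjusted p = 0.0574), without normalization factors (0.0881), with at least 10 counts required in every library (0.0553), and without SEM::mock replicate 1 (0.0735), SEM::mock replicate 3 (0.0532) or SEM::EGR3 replicate 3 (0.0581). DHCR7, also a sterol reductase, had 64.4 ± 5.07 and 60.6 ± 0.957 CPM (SD, n = 3 each, log2fc -0.08, adjusted p = 0.287 in edgeR). Without SEM::mock replicate 1 it passed the threshold as lower (log2fc -0.17, adjusted p = 0.0496). CYP51A1, the lanosterol demethylase, was listed with 0 counts in all 6 libraries. Of its last exon, 99.5% is shared with another annotated gene on the same strand, AC000120.2, which is not listed in the count table. Nothing is therefore said about the expression of CYP51A1.

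**Figure D3:**
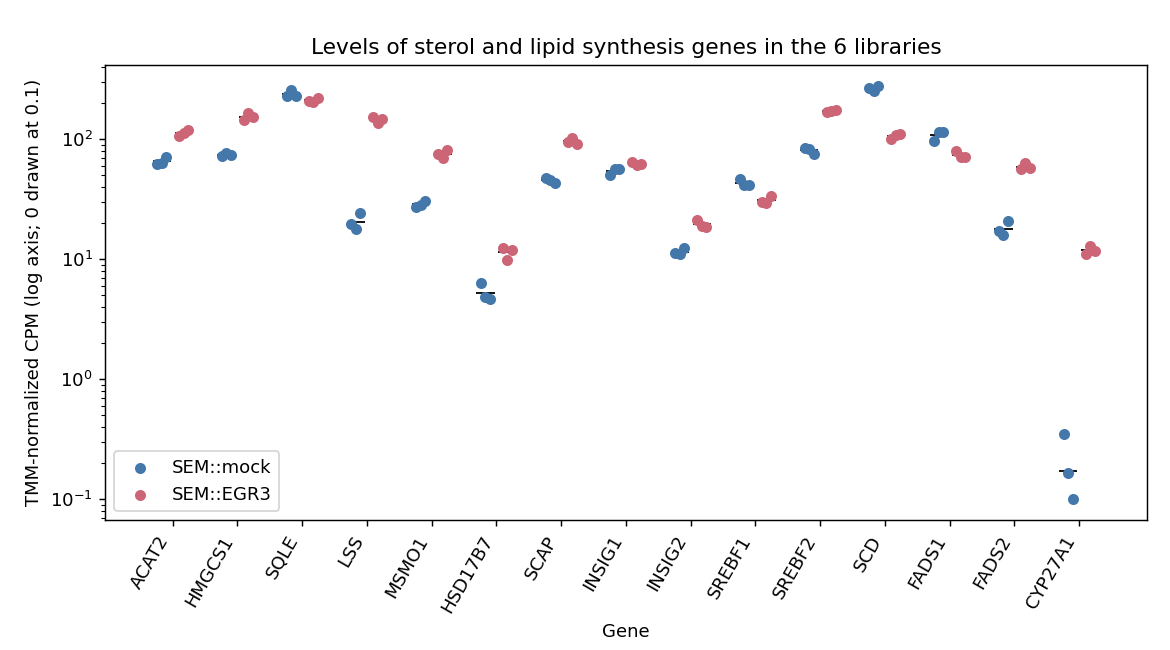
TMM-normalized CPM (log axis) of 15 members in each library, with the mean of a line as a black bar, SEM::mock in blue and SEM::EGR3 in red. The members are those with an absolute log2fc of at least 1 and 6 that complete a step or pair. LSS moves from a mean of 20.6 to 146 CPM, while SQLE stays between 206 and 258 CPM in all 6 libraries.

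The SREBP factors and their regulators all passed the test, 4 as higher and 1 as lower, with a median log2fc of 0.79. These are few genes, and 68.5% of all genes tested passed. SREBF2 had 84.1, 83.4 and 75.6 CPM in SEM::mock and 168, 171 and 174 CPM in SEM::EGR3, a 2.10-fold rise (log2fc 1.07, SE 0.06, adjusted p = 5.07e-14). SREBF1 had 47.0, 41.5 and 41.4 CPM in SEM::mock and 30.0, 29.5 and 33.8 CPM in SEM::EGR3, a decrease (log2fc -0.48, SE 0.09, adjusted p = 2.18e-05). The 2 factors thus moved in opposite directions, each without overlap between the lines. SCAP, the escort of both precursors, had 47.5, 46.0 and 43.0 CPM in SEM::mock and 94.5, 103 and 91.0 CPM in SEM::EGR3, a 2.11-fold rise (log2fc 1.07, SE 0.07, adjusted p = 1.44e-12). INSIG2, a retention protein of SCAP, rose from 11.5 ± 0.686 to 19.6 ± 1.60 CPM (SD, n = 3 each, log2fc 0.79, SE 0.12, adjusted p = 3.54e-06). INSIG1, its paralog and a classical SREBP target, had 50.2, 57.1 and 56.6 CPM in SEM::mock and 64.4, 60.5 and 62.3 CPM in SEM::EGR3 (log2fc 0.20, SE 0.07, adjusted p = 0.0167). The INSIG1 call was lost without SEM::mock replicate 1 (log2fc 0.12, adjusted p = 0.171), without SEM::EGR3 replicate 1 (log2fc 0.17, adjusted p = 0.0658) and in DESeq2 (adjusted p = 0.0657). The RNA level of an SREBP does not measure the cleaved, active factor.

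Fatty acid synthesis leaned in the other direction, with 2 enzymes higher and 4 lower among 6 and a median log2fc of -0.40. Of all genes tested, 36.5% were higher and 32.0% lower. SCD, which makes oleic acid from stearic acid, had 269, 253 and 279.7 CPM in SEM::mock and 101, 109 and 110.1 CPM in SEM::EGR3. It was 2.51-fold lower in SEM::EGR3 (log2fc -1.33, SE 0.06, adjusted p = 3.64e-16), the largest decrease among the 33 tested members. ELOVL6, which elongates palmitate toward stearate, was lower at 37.8 ± 2.58 against 53.9 ± 2.83 CPM (SD, n = 3 each, log2fc -0.50, SE 0.08, adjusted p = 3.47e-06). ACACA, the acetyl-CoA carboxylase that commits carbon to the route, was lower at 39.5 ± 2.49 against 49.2 ± 2.85 CPM (SD, n = 3 each, log2fc -0.31, adjusted p = 0.00116 in edgeR). FASN, the fatty acid synthase itself, was higher at 205 ± 8.41 against 171 ± 6.80 CPM (SD, n = 3 each, log2fc 0.27, adjusted p = 0.000177 in edgeR).

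The desaturases of polyunsaturated fatty acids, FADS1 and FADS2, are neighbours on chromosome 11 and split as well. FADS2, the delta-6 desaturase, had 17.1, 15.8 and 20.9 CPM in SEM::mock and 56.1, 64.0 and 57.6 CPM in SEM::EGR3, a 3.30-fold rise (log2fc 1.72, SE 0.10, adjusted p = 5.53e-14). FADS1, the delta-5 desaturase, had 96.6, 115 and 116 CPM in SEM::mock and 80.4, 71.6 and 71.8 CPM in SEM::EGR3, a decrease (log2fc -0.54, SE 0.07, adjusted p = 3.69e-07). In GRCh38 (GENCODE release 29) FADS1 spans chr11:61799625-61829318 on the minus strand and FADS2 chr11:61792980-61867354 on the plus strand, so their annotated spans overlap, but no exon of another gene overlapped the last exon of either.

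The unequal changes of paired genes were also visible as a ratio of counts within each library, which does not depend on normalization. These 5 pairs were chosen after their values were seen, and the ratios are a description without a test. The ratio is read between lines and not as a relation of levels between 2 genes. SREBF2 to SREBF1 ran from 1.79 to 2.01 in SEM::mock and from 5.14 to 5.78 in SEM::EGR3. FADS2 to FADS1 ran from 0.138 to 0.181 and from 0.699 to 0.893. LSS to SQLE, successive steps, ran from 0.0693 to 0.106 and from 0.664 to 0.737. In these 3 pairs, as in the pairs that follow, the ratio was higher in every SEM::EGR3 library than in every SEM::mock library. FASN to SCD ran from 0.596 to 0.706 and from 1.80 to 2.12. INSIG2 to INSIG1, the smallest of the shifts, ran from 0.193 to 0.225 and from 0.297 to 0.333.

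**Figure D4:**
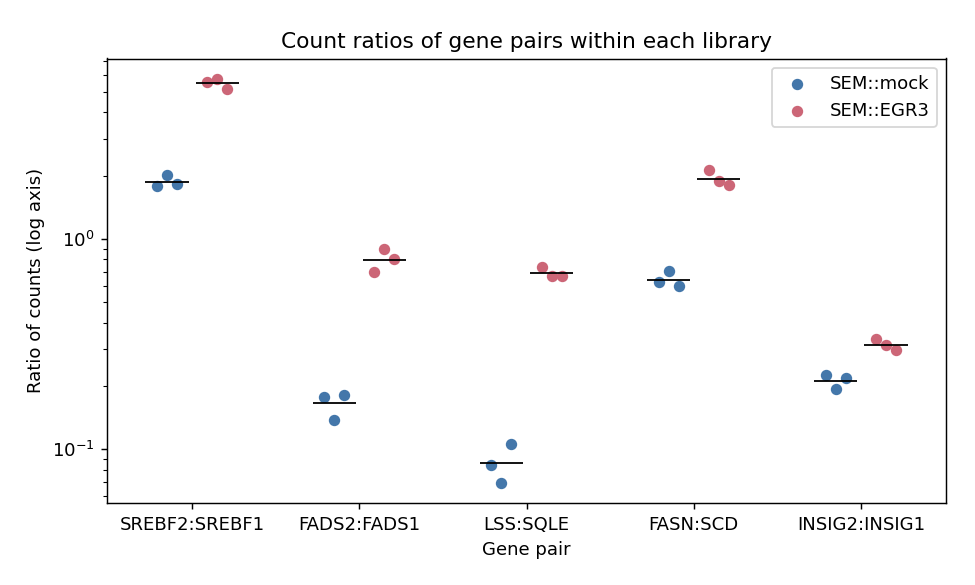
Ratio of counts (log axis) of 5 gene pairs within each library, with the mean of a line as a black bar, SEM::mock in blue and SEM::EGR3 in red. The lines do not overlap in any of the 5 pairs, and FADS2 to FADS1 moves from at most 0.181 to at least 0.699.

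In sterol transport, efflux and oxidation, 4 of 6 members were tested, of which 3 were higher, 0 were lower and 1 did not pass. For CYP27A1, the mitochondrial sterol 27-hydroxylase, SEM::mock held 2, 1 and 0 counts, against 173, 97 and 106 in SEM::EGR3. Over the summed counts this was a 65.6-fold higher level in SEM::EGR3, with an exact 95% interval of 22.3 to 319 that covers counting error only. This ratio rests on 3 counts: it was 130.2 without SEM::mock replicate 1, 45.6 without SEM::mock replicate 3, and between 63.3 and 68.7 without any other single library. Since the gene passed the filter on low counts through its SEM::EGR3 libraries alone, no p-value is given as support. STARD4, a carrier of cholesterol through the cytosol and an SREBP target, rose from 24.3 ± 1.11 to 40.5 ± 1.87 CPM (SD, n = 3 each, log2fc 0.73, SE 0.09, adjusted p = 5.99e-08). NPC1, which exports cholesterol from lysosomes, rose from 40.7 ± 2.89 to 56.2 ± 1.07 CPM (SD, n = 3 each, log2fc 0.46, adjusted p = 5.91e-06 in edgeR). Its soluble partner NPC2 had 32.6 ± 3.60 and 32.0 ± 2.42 CPM, with overlapping libraries (SD, n = 3 each, adjusted p = 0.862 in edgeR). NPC1 shares 17.7% of its last exon with RMC1 on the opposite strand, which had 162 to 195 counts in SEM::mock and 298 to 568 in SEM::EGR3. The efflux pumps ABCA1 and ABCG1, targets of the oxysterol receptor LXR, were too low to test: SEM::mock held 5, 6 and 8 counts of ABCA1, and SEM::EGR3 14, 4 and 2, and ABCG1 had at most 2 counts in any library.

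Genes around the pathway were described for comparison in 44 genes of 4 lists, of which 17 were higher, 13 were lower and 14 did not pass, with a median log2fc of 0.01. Their called share of 68.2% lay next to the 68.5% of all genes tested. LIPA, among these 17, entered the test through its SEM::EGR3 libraries alone and so had to differ. Of 8 genes of SREBP cleavage and sterol-sensing degradation, 3 were higher and 1 lower (median log2fc 0.08). TMEM97, a sterol-responsive membrane protein that limits NPC1, rose from 58.5 ± 1.11 to 108 ± 5.13 CPM (SD, n = 3 each, log2fc 0.89, SE 0.06, adjusted p = 7.54e-12). ERLIN1, which takes part in sterol-regulated protein degradation, had a log2fc of 0.48 (SE 0.09, adjusted p = 6.12e-05). MBTPS2, the second protease that cleaves SREBPs, had a log2fc of 0.46 (SE 0.13, adjusted p = 0.00372).

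Of 14 genes of acetyl-CoA supply and fatty acid handling, 5 were higher and 7 lower (median log2fc -0.11). ACSS2, which makes cytosolic acetyl-CoA from acetate and is an SREBP target, had 42.2, 33.5 and 38.3 CPM in SEM::mock and 15.4, 18.1 and 16.0 CPM in SEM::EGR3 (log2fc -1.22, SE 0.10, adjusted p = 1.30e-10). It lay in the direction of SCD, without overlap of the lines. ACSL5, which activates long-chain fatty acids, rose from 4.04 ± 0.467 to 12.5 ± 2.23 CPM (SD, n = 3 each, log2fc 1.61, SE 0.19, adjusted p = 4.42e-08). HSD17B12, of the elongation cycle, had a log2fc of 0.71 (SE 0.07, adjusted p = 3.75e-09).

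Of 12 genes of LXR, sterol esters and lipid transfer, 6 were higher and 3 lower (median log2fc 0.18). LIPA, the lysosomal lipase that frees cholesterol from its esters, was counted 4, 8 and 3 times in SEM::mock against 289, 136 and 171 times in SEM::EGR3. Over the summed counts its level was 20.8-fold higher in SEM::EGR3 (exact 95% interval 12.5 to 37.4, counting error only), and 18.1- to 28.6-fold with 1 library left out. LIPA, too, passed the filter on low counts through its SEM::EGR3 libraries alone and so had to differ, and no p-value is given as support. MYLIP, an LXR target that leads lipoprotein receptors to degradation, fell from 81.1 ± 7.60 to 31.2 ± 3.10 CPM (SD, n = 3 each, log2fc -1.36, SE 0.08, adjusted p = 2.40e-13). ARV1, which acts in sterol transport from the endoplasmic reticulum, had a log2fc of -0.69 (SE 0.07, adjusted p = 6.30e-09).

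**Figure D5:**
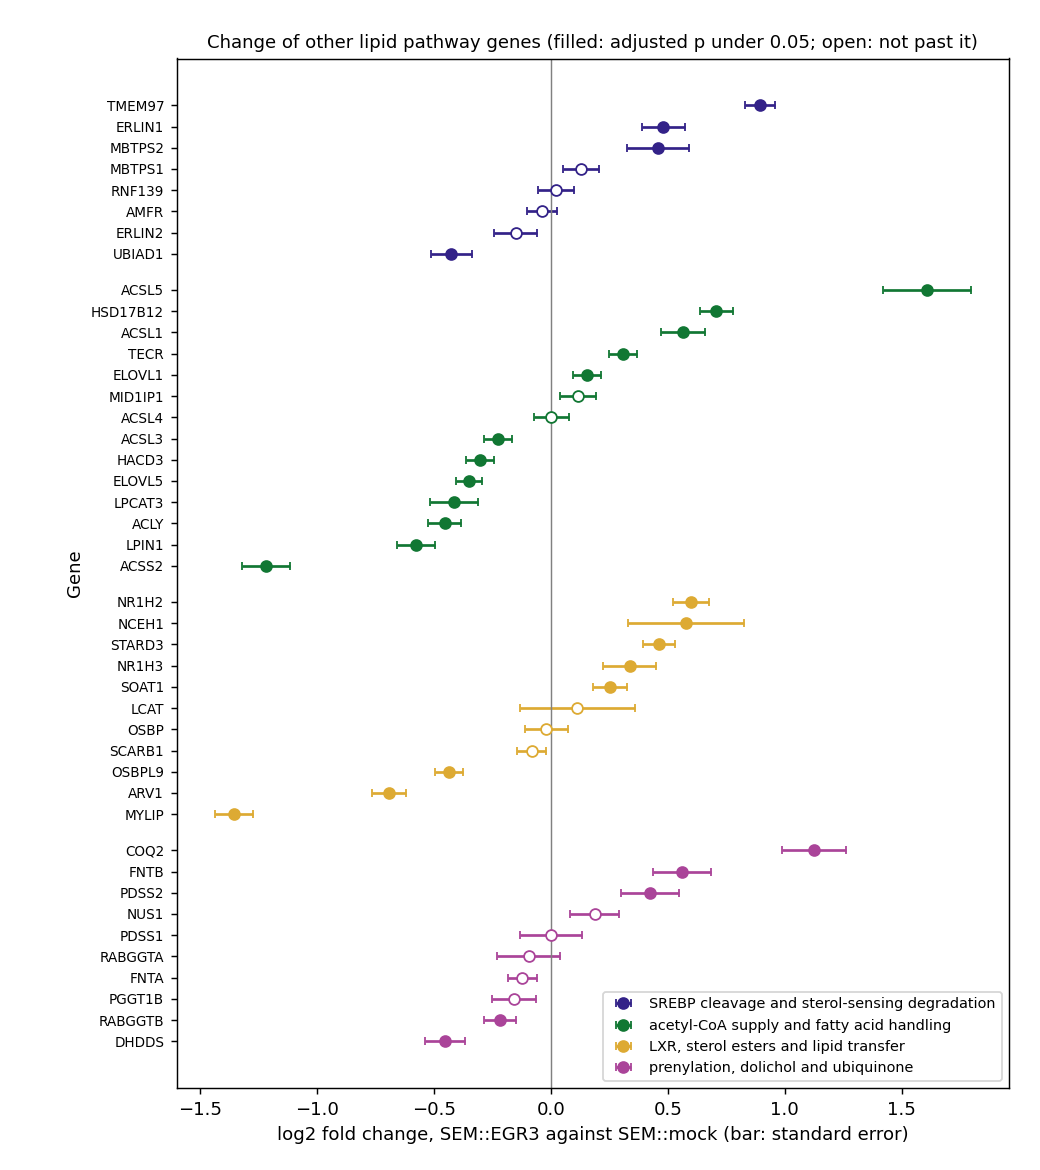
log2fc of the other pathway genes with its standard error, in 4 lists, without LIPA, whose fitted value rests on few counts in SEM::mock. Filled points passed an adjusted p-value of 0.05 and open points did not. ACSL5 lies at 1.61, MYLIP at -1.36 and ACSS2 at -1.22.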

How the data were processed

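RNA of 3 SEM::mock and 3 SEM::EGR3 replicates was measured by MACE-Seq. The values deposited by the authors are raw counts, 1 whole number for each gene in each library. The submitters' processing notes name bcl2fastq, Bowtie2, HTSeq and GRCh38, while versions, annotation, strand setting and the treatment of multimapping reads are not given in the sources used here. The table also holds scaled values and the authors' own comparison (fold changes and p-values), which were not used. Its column headings spell the gene ERG3 and were read as SEM::EGR3. Of the per-sample count columns, 6 were used.

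The tests were run with edgeR 4.0.16 under R 4.3.3 (filterByExpr, TMM, glmQLFit, glmQLFTest, no covariate). Benjamini-Hochberg adjustment covered the 15465 genes tested. The procedure was tested on simulated data. DESeq2 1.42.0, other normalization factors and filters, a replicate block, a minimum absolute log2fc of 1 and leaving out single libraries were tried as alternatives. A library with 3 counts or fewer was taken as being at the detection limit of a gene. Counts are reads, not independent molecules, so intervals cover counting error only. The p-values set the difference between the lines against the spread among the 3 replicates within each line. With a single line of each kind, they do not cover variation between independently made lines. Replicates of a line differed by more than counting noise (chi-square per degree of freedom 1.91 to 3.82).

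Members and lists were chosen with earlier results of these data known. All 36 members are named, and in each other list the 3 genes with the largest absolute log2fc among those past the threshold without overlap. Positions and overlaps come from GENCODE release 29, and promoters from RefSeq (GRCh38.p14, 250 bases before the start), trimmed in the printed sequences to bases outside the gene. CYP27A1 and LIPA, which passed the filter through SEM::EGR3 alone, are given by their summed counts with an exact (Clopper-Pearson) 95% interval.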

Additional observations from a re-analysis of the deposited data

How the results depend on the processing

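No result reversed its call under any alternative. With a minimum absolute log2fc of 1, 3896 genes passed over the whole table, with 8 members higher and 1 lower, and 3 other pathway genes higher and 2 lower. Leaving out 1 library at a time gave 9938 to 10499 genes, 19 to 20 members higher and 6 to 7 lower, and 14 to 17 other pathway genes higher and 13 lower. Without normalization factors, 21 members were higher and 5 lower, and 20 other pathway genes higher and 12 lower. With at least 10 counts in every library, 20 members were higher and 5 lower. DESeq2 called 9391 genes, with 19 members higher and 6 lower. The replicate numbers did not pair the libraries. Deviations of log2 levels from the mean of a line, over 9529 genes, correlated at -0.27, -0.20 and -0.09 between same-numbered libraries. With the number as a replicate block, 10082 genes passed, with 20 members higher and 7 lower, and 16 other pathway genes higher and 13 lower. Of the alternative values of single members, 413 kept their side of the threshold, 12 lost the call (SQLE, SC5D and INSIG1) and 3 gained it. PMVK passed without normalization factors (log2fc 0.21, adjusted p = 0.0175) and with at least 10 counts in every library (0.19, adjusted p = 0.0334), and DHCR7 without SEM::mock replicate 1. FDPS, GGPS1, NSDHL and NPC2, which did not pass, changed sign in some alternatives. Leaving out normalization factors moved the median of all genes by 0.076 on the log2 scale. CYP27A1 has no value where at least 10 counts were required in every library. Depth limits ABCA1, ABCG1 and genes near 0 in SEM::mock.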

Other observations

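The isoprenoid branches that leave the pathway before squalene were described in 10 genes of prenylation, dolichol and ubiquinone synthesis. Of these, 3 were higher in SEM::EGR3, 2 were lower and 5 did not pass, with a median log2fc of -0.05. COQ2, which joins the prenyl tail to the ring of ubiquinone, had 12.5, 13.0 and 7.42 CPM in SEM::mock and 24.3, 22.9 and 25.3 CPM in SEM::EGR3 (log2fc 1.13, SE 0.14, adjusted p = 8.04e-08). FNTB, the beta subunit of farnesyltransferase, rose from 12.1 ± 0.816 to 18.0 ± 1.36 CPM (SD, n = 3 each, log2fc 0.56, adjusted p = 0.000282 in edgeR), while its partner FNTA had 95.0 ± 2.04 and 87.3 ± 3.68 CPM and did not pass (SD, n = 3 each, adjusted p = 0.0789 in edgeR). FNTA lies outside the rule for named genes and was added after its values were seen. DHDDS, of dolichol synthesis, was lower at 30.2 ± 2.42 against 40.9 ± 1.99 CPM (SD, n = 3 each, log2fc -0.45, SE 0.09, adjusted p = 5.76e-05).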
